A study of Homo sapiens with 12 samples.

Results

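The genes described here are 7 that build the MHC class II pathway of antigen display. They are the α and β chain genes HLA-DRA, HLA-DRB1, HLA-DPA1, HLA-DPB1, HLA-DQA1 and HLA-DQB1, and CD74, which encodes the invariant chain. They were chosen by name, from 19775 genes with a probe set of their own on the array, and every probe set annotated to one of them was followed over 12 arrays. The genes and the lists set beside them were chosen with earlier results of these data known. Shares of all tested probe sets are thus given for scale and are no test of the group. Of 27 such probe sets, 21 carry 1 of the 7 symbols alone and 6 are shared with a related gene, and the shared ones are given apart. A filter on mean signal kept 20 of the 21 and all 6 shared ones. The probe set it left out, 210747_at of HLA-DQB1, read between 0.4 and 5.7 on all arrays.

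The RNA came from Z-138 and Maver-1, established human cell lines from mantle cell lymphoma, which arises from B cells. By its label Z-138 has a nonsense mutation of TRAF2, while TRAF3 is deleted in Maver-1. Each line was grown as 3 puromycin-selected cultures, with a hairpin called NIKsh#1, a hairpin called NIKsh#2 or a non-targeting control hairpin called NTC, and hairpin expression was switched on by doxycycline. NIKsh#1 and NIKsh#2 are directed at MAP3K14, the gene of NIK, which switches on alternative NF-kB signalling. All 6 cultures received 100 or 0 ng/ml doxycycline over 7 days, with 1 array per condition. The groups with doxycycline are thus 4 NIKsh arrays and 2 NTC arrays, and the groups without doxycycline are the same number. All cultures had the selection drug and a hairpin construct in common, and whether a culture came from 1 clone is not given in the sources used here. No labels say that the cultures of a line were derived independently, so the p-values measure the spread between these cultures.

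An MHC class II molecule is a pair of an α and a β chain that holds a peptide on the surface of B cells, dendritic cells and macrophages for helper T cells to read. In humans the DR, DP and DQ pairs are made, and their β chains, together with the DQ α chain, vary widely between people. CD74 fills the groove of new pairs in the endoplasmic reticulum and guides them to the endosome, where it is cut away and HLA-DM exchanges its last fragment for an antigen peptide. Transcription of these genes in B cells depends on the transactivator CIITA, which is recruited by factors bound to the X and Y boxes of their promoters.

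Chain genes lie on chromosome 6 and CD74 on chromosome 5. In RefSeq's annotation of GRCh38.p14, HLA-DRA spans chr6:32439887-32445046, HLA-DRB1 chr6:32578775-32589848, HLA-DQA1 chr6:32637406-32655272, HLA-DQB1 chr6:32659467-32666657, HLA-DPA1 chr6:33064569-33080748, HLA-DPB1 chr6:33075990-33089696 and CD74 chr5:150401639-150412910. RefSeq's promoter table, with 250 bases before and 50 after each start, held 6 of the 7 genes, all but HLA-DRA. Both strands were searched for CCAAT, the core of the Y box, for GNNACNGAT, the core of the X box, and for TGACG, the core of the X2 box. None of these motifs contains another, and no matches shown here overlap. CCAAT was found in 34.6% of all 35116 promoters, GNNACNGAT in 6.55% and TGACG in 24.6%. For the 5 genes with a CCAAT match from 130 to 40 bases before the start, the stretch around the first such match is shown, since the genes are known to share this arrangement and their signals are compared here. Letters in capitals are motif matches, and ATTGG is CCAAT read on the opposite strand. Each stretch is 65 bases, on the strand of its gene. They lie at chr6:32637293-32637357 (plus strand) for HLA-DQA1, chr6:32666726-32666790 (minus) for HLA-DQB1, chr6:33075846-33075910 (plus) for HLA-DPB1, chr6:32589875-32589939 (minus) for HLA-DRB1 and chr5:150412944-150413008 (minus) for CD74.
HLA-DQA1: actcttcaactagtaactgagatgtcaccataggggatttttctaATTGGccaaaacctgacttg
HLA-DQB1: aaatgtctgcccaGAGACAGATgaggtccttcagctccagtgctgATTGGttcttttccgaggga
HLA-DPB1: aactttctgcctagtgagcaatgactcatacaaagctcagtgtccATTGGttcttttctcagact
HLA-DRB1: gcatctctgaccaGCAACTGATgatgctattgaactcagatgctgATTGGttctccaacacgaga
CD74: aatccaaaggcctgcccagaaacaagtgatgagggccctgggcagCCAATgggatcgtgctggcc

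HLA-DRB1 and HLA-DQB1 hold both matches in the shown stretch, and in both genes the first base of GNNACNGAT precedes that of ATTGG by 32 bases. In HLA-DQA1, HLA-DPB1 and CD74 the shown stretch holds the CCAAT core alone. The 2 HLA-DPA1 promoters in the table held no CCAAT match, and each held 1 TGACG match. HLA-DPB1 and HLA-DQB1 also held 1 TGACG match each, outside the shown stretch. Some promoters held further CCAAT or GNNACNGAT matches that are not shown. A match is a description of letters and not a measured binding site.

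The arrays were of similar brightness, with medians from 10.6 to 14.1 after the authors' scaling. The 6 B cell markers had a summed signal between 4207.6 and 6965.1 in Z-138 and between 5490.9 and 6632.3 in Maver-1 with doxycycline. Without it the sums were 5100.2 to 5723.3 in Z-138 and 5950.9 to 6484.8 in Maver-1. Most of the sum was MS4A1, at 2767.1 to 4005.8, while CD22 read 29.4 to 97.6 and BLK 26.2 to 82.9. The 3 mantle cell lymphoma markers summed to 2375.5 to 4289 in Z-138 and 3457.5 to 4451.5 in Maver-1 with doxycycline, against 3684.1 to 4080.4 and 3301.6 to 3832.3 without it. CCND1 and SOX11 carried these sums, while CD5 read 0.5 to 1.6 in Z-138 and 33.7 to 70.8 in Maver-1. Other cells that carry class II were hardly seen: of 7 monocyte and dendritic cell markers 2 passed the filter, CD14 read at most 3.1 on any array, and the list summed to 25.4 to 56.1 with doxycycline, against 29.4 to 75.8 without it. One of the 2 that passed the filter, ITGAX, had a fitted change of -0.74 ± 0.21 in the NIKsh cultures (limma adjusted p = 0.401), and its part in the class II values was not tested. Of 6 T and NK cell markers 2 passed, with sums of 16.4 to 190.9 with doxycycline, against 16 to 206.4 without it. The higher sums were mostly CD3G in Z-138, at 56.6 to 177.5, against 0.8 to 7.2 in Maver-1. The 4 plasma cell markers summed to 2570.3 to 5341.1 with doxycycline, against 2464 to 4810 without it. MAP3K14 read 33.3 and 49.2 in Z-138 NIKsh#1 and NIKsh#2 and 63.4 and 55.7 in Maver-1 with doxycycline, against 55.2 and 52 in Z-138 and 86.9 and 79.3 in Maver-1 without it. With the NTC construct MAP3K14 read 55.4 (Z-138) and 132.7 (Maver-1) with doxycycline, against 46.4 and 77.2 without it. Its mean log2 change was -0.42 in the 4 NIKsh and 0.50 in the 2 NTC cultures. The difference of -0.92 thus holds a rise in the NTC cultures as well (exact permutation test over 15 arrangements, two-sided, p = 0.0667, the smallest this design allows). In Z-138 NIKsh#2 the change was -0.08. ACTB control probe sets at the 3' and 5' ends of the transcript gave a ratio that depends on how intact and how fully copied the RNA was. This ratio was higher with doxycycline in all 3 Z-138 cultures, at 4.62 against 2.86 in NIKsh#1, 5.09 against 2.92 in NIKsh#2 and 6.34 against 2.33 in NTC. It is given again beside the Z-138 results.

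Fitted class II values were below 0 with doxycycline in the NIKsh cultures and mostly above 0 in the NTC cultures. By the brightest probe set of each gene they were lowest for the DQ chains and nearest to 0 for the DR chains and CD74. Dimmer probe sets of the same gene often lay further from 0. CD74 was at -0.19 by 209619_at (mean signal 3824.8) and at -0.95 by 1567627_at (216.5). The part of brightness in the order of the chains was not tested. No probe set of the 7 genes passed the test over both lines together. Every one of the 20 had a negative fitted change in the NIKsh cultures, where 47.1% of all tested probe sets did, with a median of -0.58 on the log2 scale, against 0.01 for all tested probe sets. One of the 20, HLA-DQA1 203290_at, passed the filter through Z-138 alone and read around the filter level on all Maver-1 arrays. Some counts that use Maver-1 are therefore also given without it, over 19, and counts given over 20 alone include it. In the NTC cultures 4 of the 20 were negative and their median was 0.08. The values here are log2(signal + 3) with doxycycline minus without it in the same culture, fitted with limma over 27858 probe sets, with Benjamini-Hochberg adjustment over all of them and a threshold of 0.05. Errors after ± are standard errors of that fit unless said otherwise.

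Counted by the test, 0 of 20 passed in the NIKsh cultures, where 0.00718% of all tested probe sets passed. At an unadjusted p under 0.05, 18 of 20 (17 of 19 without 203290_at) were lower and 0 higher, beside 3.39% of all tested probe sets that were lower. All 6 shared probe sets were lower at that level too. In the NTC cultures 0 of 20 passed and 0 reached an unadjusted p under 0.05 in either direction (0% of all tested probe sets passed). In the difference between NIKsh and NTC cultures 0 of 20 passed (0% of all), 13 of 20 (13 of 19) were lower at an unadjusted p under 0.05 (1.85% of all), and the median was -0.66, against 0.03 for all tested probe sets.

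Cultures could be ordered by the median change of the 20 probe sets. Among the Z-138 NIKsh cultures it was -0.97 for NIKsh#1 and -0.58 for NIKsh#2, and among those of Maver-1 it was -0.35 for NIKsh#1 and -0.26 for NIKsh#2. For the NTC construct it was 0.06 (Z-138) and 0.11 (Maver-1). Over all tested probe sets the medians of the same cultures lay between -0.06 and 0.03. In 13 of 19 probe sets every NIKsh change was under every NTC change (14 of 20 with 203290_at), as was true for 5.57% of all tested probe sets. For 15 of 20 all 4 NIKsh changes were below 0, against 7.79% of all. A signal at least 1.5-fold lower in all 4 NIKsh cultures was found for 2 of 20, and for 0.158% of all tested probe sets.

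**Figure D1:**
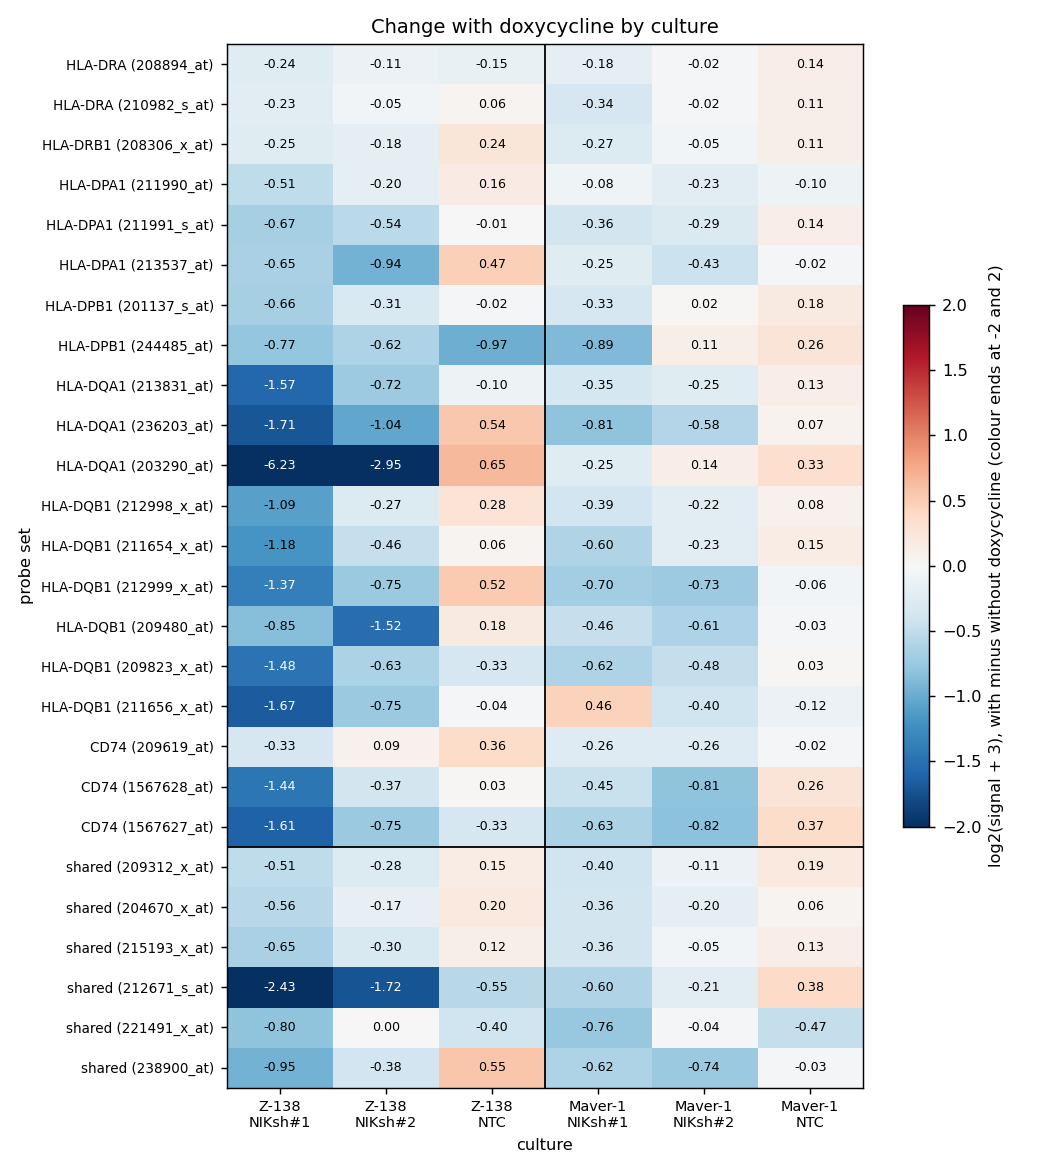
Log2(signal + 3) with minus without doxycycline for the 26 tested probe sets (rows, the shared ones below the line) in each of 6 cultures (columns), written in each cell and coloured from blue (lower with doxycycline) to red (higher), with the colour scale ending at -2 and 2. The values of 203290_at in Maver-1 and in Z-138 NIKsh#1 rest on signals around or below the filter level and are no measured sizes, and the NTC columns hold values of both signs.

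HLA-DQA1, the α chain of the DQ pair, had the lowest value among the brightest probe sets. Its brightest probe set, 213831_at, read 451.5 against 1342.2 without doxycycline in Z-138 NIKsh#1 and 748.7 against 1233.5 in Z-138 NIKsh#2. In the Maver-1 cultures it read 1867.7 against 2376.5 without doxycycline in NIKsh#1 and 1957.3 against 2333.8 in NIKsh#2. The NTC cultures read 1486.1 with doxycycline against 1591 without it in Z-138 and 2341.5 against 2138.9 in Maver-1. Thus all 4 NIKsh cultures were lower with doxycycline, the 2 of Z-138 by the most, and the NTC cultures went either way. The fitted change in Z-138 NIKsh cultures was -1.14 ± 0.17 (limma adjusted p = 0.0173) and in Maver-1 -0.30 ± 0.17 (adjusted p = 1). For NIKsh#1 and NIKsh#2 the changes behind these values were -1.57 and -0.72 in Z-138, and -0.35 and -0.25 in Maver-1. The pooled error is thus smaller than the gap between the Z-138 cultures alone would give.

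A second HLA-DQA1 probe set, 236203_at, read 144.7 against 480.5 without doxycycline in Z-138 NIKsh#1, 225.7 against 467.4 in Z-138 NIKsh#2, 424.1 against 747.9 in Maver-1 NIKsh#1 and 472.1 against 706.7 in Maver-1 NIKsh#2. Under the NTC construct it read 776.8 with doxycycline against 534.1 without it in Z-138, and 789.3 against 749.2 in Maver-1. Here the NIKsh and NTC changes did not overlap, with a mean difference of -1.34 (exact permutation test, two-sided, p = 0.0667, the smallest possible). In Z-138 NIKsh cultures the change was -1.38 ± 0.19 (limma adjusted p = 0.013).

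The third, 203290_at, was bright on some Z-138 arrays alone. With doxycycline it read 9.9 in Z-138 NIKsh#1 against 963.1 without it, and 107.8 in Z-138 NIKsh#2 against 854.4. In Z-138 NTC it read 1652 with doxycycline against 1053.3 without it. On all 6 Maver-1 arrays it lay between 8.2 and 13.1, around the filter level of 12.55, so no change could be read there. Taking the filter level as a floor, the signal in Z-138 NIKsh#1 was at least 76.7-fold lower with doxycycline, and in Z-138 NIKsh#2 it was 7.93-fold lower. The fit over the Z-138 NIKsh cultures passed (limma adjusted p = 0.0107), but it takes the 9.9 as measured, so its size is not used. A probe set shared by HLA-DQA2 and HLA-DQA1, 212671_s_at, read 117.5 against 647.5 without doxycycline in Z-138 NIKsh#1 and 183.9 against 614.2 in NIKsh#2. In Z-138 NTC the shared probe set was also lower with doxycycline, at 580.5 against 851, and its NIKsh change in Z-138 was -2.08 ± 0.19 (limma adjusted p = 0.00236).

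**Figure D2:**
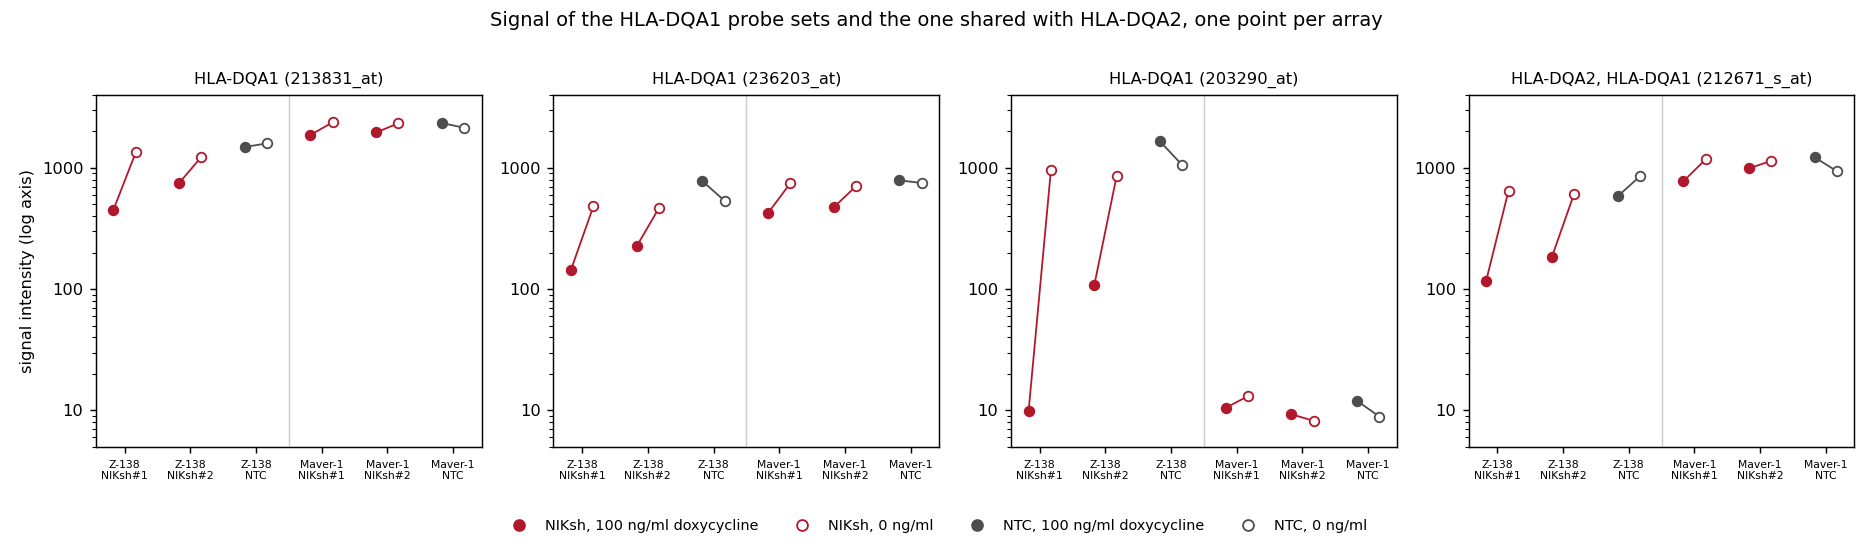
Signal intensity on a log axis of the HLA-DQA1 probe sets and the one shared with HLA-DQA2, with 1 point per array (filled with doxycycline, open without) joined within a culture, NIKsh in red and NTC in grey. In Z-138 the filled NIKsh points lie below the open ones in every panel, and 203290_at reads 8.2 to 13.1 on all Maver-1 arrays.

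HLA-DQB1, the β chain of the same pair, is read by 7 probe sets, of which 6 were tested. The brightest, 212998_x_at, read 572.2 against 1224 without doxycycline in Z-138 NIKsh#1 and 884.2 against 1069.9 in Z-138 NIKsh#2. It read 1053.9 against 1384.7 in Maver-1 NIKsh#1 and 1184.1 against 1381.9 in Maver-1 NIKsh#2. With the NTC construct it was higher with doxycycline, at 1551.1 against 1274 in Z-138 and 1569.9 against 1480.5 in Maver-1. The NIKsh and NTC changes of this probe set thus did not overlap, with a Z-138 fit of -0.68 ± 0.17 that did not pass (limma adjusted p = 0.117). Of the other tested HLA-DQB1 probe sets, 212999_x_at and 209480_at passed in the Z-138 NIKsh cultures, at -1.06 ± 0.18 (limma adjusted p = 0.0293) and -1.19 ± 0.21 (limma adjusted p = 0.0356). The remaining 3, which are 211654_x_at, 209823_x_at and 211656_x_at, ran from -1.21 to -0.82 there without passing.

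HLA-DQB1 212999_x_at read 165 against 430.9 without doxycycline in Z-138 NIKsh#1 and 236.6 against 399.3 in NIKsh#2, while Z-138 NTC read 681.6 against 473.9. In Maver-1 it read 546.5 against 887.3 in NIKsh#1, 551.4 against 918.6 in NIKsh#2 and 958.2 against 999.8 in NTC. This probe set and CD74 1567627_at are the 2 with a signal at least 1.5-fold lower in all 4 NIKsh cultures. One HLA-DQB1 probe set, 211656_x_at, went the other way in 1 culture, at 103.5 with doxycycline against 74.5 without it in Maver-1 NIKsh#1. Its signal was below 110 on all Maver-1 arrays and reached 548.3 in Z-138. By the maker's naming, a suffix _x_at marks a probe set with probes that also match other transcripts, so the HLA-DQB1 sets so named may read related genes as well.

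Among the DP chains, HLA-DPA1, the α chain, read 1791.2 against 2551.7 without doxycycline in Z-138 NIKsh#1 and 2122.7 against 2433.6 in NIKsh#2 by its brightest probe set, 211990_at. In Maver-1 it read 3032 against 3210.8 in NIKsh#1 and 2971.6 against 3490.7 in NIKsh#2. The NTC cultures read 2819.5 with doxycycline against 2528.2 without it in Z-138 and 3293 against 3521 in Maver-1, so the Maver-1 NIKsh#1 change of -0.08 overlapped the Maver-1 NTC change of -0.10. A second HLA-DPA1 probe set, 211991_s_at, passed in Z-138 NIKsh cultures at -0.60 ± 0.09 (limma adjusted p = 0.0165), with 1006.8 against 1601.9 in NIKsh#1 and 1173.5 against 1707.7 in NIKsh#2. Another, 213537_at, had a change of -0.80 ± 0.15 there and did not pass (limma adjusted p = 0.051).

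HLA-DPB1, the β chain, read 1394.9 against 2206.5 without doxycycline in Z-138 NIKsh#1 and 1729.7 against 2142.4 in NIKsh#2 by probe set 201137_s_at. In Maver-1 it read 1572.7 against 1972.3 in NIKsh#1 and 2030 against 2008.3 in NIKsh#2. The NTC cultures read 2555.8 with doxycycline against 2587.2 without it in Z-138 and 2092.6 against 1846.6 in Maver-1. Maver-1 NIKsh#2 therefore showed no decrease, and the groups overlapped. The fitted change was -0.48 ± 0.11 in Z-138 (limma adjusted p = 0.0941) and -0.16 ± 0.11 in Maver-1 (limma adjusted p = 1). The dim probe set 244485_at of the same gene was lower with doxycycline in Z-138 NTC as well, at 122.5 against 242.3.

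Over the 4 NIKsh cultures and by the brightest probe sets, the DR chains and CD74 had the values nearest to 0. HLA-DRB1 was at -0.188 and CD74 at -0.192. The order changed by line. In Z-138 CD74 was nearest to 0, at -0.12. In Maver-1 HLA-DPB1 (-0.155) and HLA-DPA1 (-0.157) lay nearer to 0 than HLA-DRB1 (-0.163). HLA-DRA, the α chain shared by all DR pairs, read 3031.7 against 3581.6 without doxycycline in Z-138 NIKsh#1, 2875.6 against 3113.1 in Z-138 NIKsh#2, 2744.6 against 3116.8 in Maver-1 NIKsh#1 and 3319.6 against 3368.6 in Maver-1 NIKsh#2. Under the NTC construct it read 3491.5 with doxycycline against 3872.7 without it in Z-138 and 3183.5 against 2897.5 in Maver-1. The change of -0.15 in Z-138 NTC thus lay among the NIKsh changes, which ran from -0.24 to -0.02, and the fit over the 4 NIKsh cultures, -0.14 ± 0.07, did not pass (limma adjusted p = 0.631). HLA-DRB1, the main DR β chain, read 1569 against 1864.6 in Z-138 NIKsh#1, 1539.3 against 1741.4 in Z-138 NIKsh#2, 1594.1 against 1928.4 in Maver-1 NIKsh#1 and 1849 against 1917.5 in Maver-1 NIKsh#2. In its NTC cultures the signal was higher with doxycycline, at 2201.7 against 1866.4 in Z-138 and 1877 against 1743.5 in Maver-1. The HLA-DRB1 changes of the 4 NIKsh cultures did not overlap those of the NTC cultures, with a mean difference of -0.36 (exact permutation test, two-sided, p = 0.0667).

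The 5 probe sets shared among HLA-DRB genes, some of them also with HLA-DQB1, cannot be given to 1 gene. Their fits over the 4 NIKsh cultures ran from -0.67 to -0.32, and none passed the test. All lay below 208306_x_at, the probe set annotated to HLA-DRB1 alone, at -0.19. By its suffix _x_at, 208306_x_at may read related genes as well, so the HLA-DRB1 values may not be of that gene alone. The dimmest of them, 238900_at, shared by HLA-DRB1, HLA-DRB3, HLA-DRB4 and HLA-DRB5, read 33.8 against 68.3 without doxycycline in Z-138 NIKsh#1, 51.6 against 68.2 in Z-138 NIKsh#2, 81 against 125.8 in Maver-1 NIKsh#1 and 55.9 against 95.2 in Maver-1 NIKsh#2. Its NTC signals with doxycycline were 83.9 against 56.5 in Z-138 and 132.4 against 135.5 in Maver-1, so its NIKsh and NTC changes did not overlap. By contrast 221491_x_at was at -0.40 ± 0.17 in the NIKsh cultures and at -0.43 ± 0.24 in the NTC cultures, a difference of 0.03 ± 0.29.

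**Figure D3:**
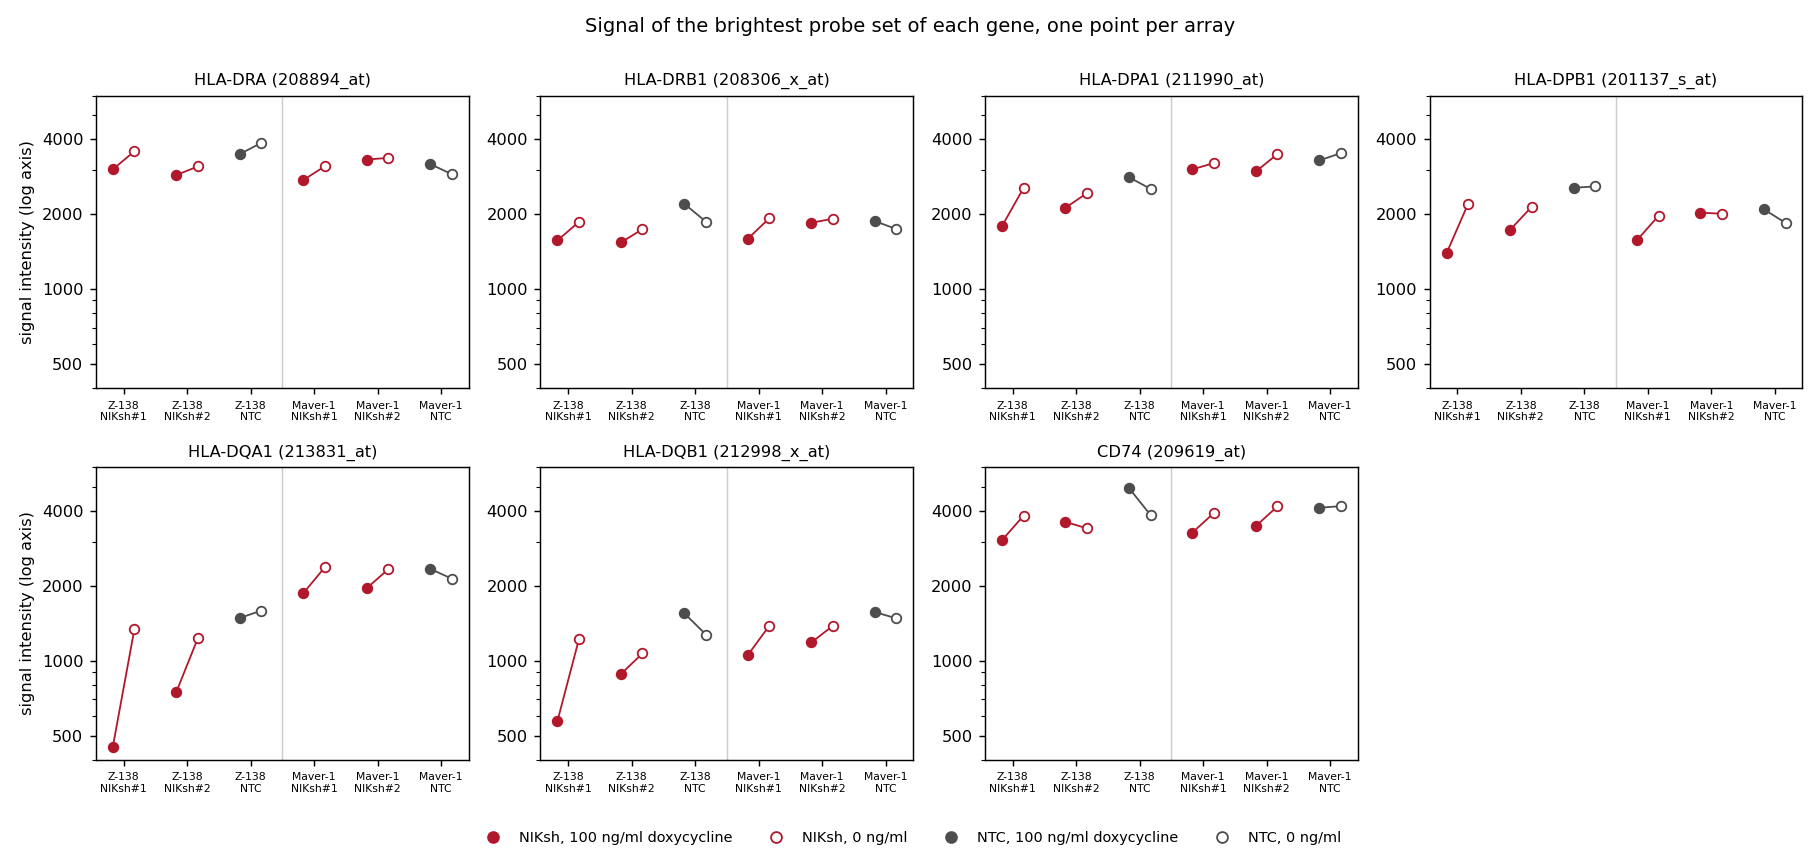
Signal intensity on a log axis of the brightest probe set of each of the 7 genes, with 1 point per array (filled with doxycycline, open without) joined within a culture, NIKsh in red and NTC in grey. Within the HLA-DQA1 panel the Z-138 NIKsh#1 array with doxycycline is lowest, at 451.5, and within the HLA-DRA panel all points lie between 2744.6 and 3872.7.

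CD74, the invariant chain, gave different readings by probe set. Its brightest, 209619_at, read 3054.5 against 3833 without doxycycline in Z-138 NIKsh#1, 3617.8 against 3406.4 in Z-138 NIKsh#2, 3276.7 against 3933.8 in Maver-1 NIKsh#1 and 3480 against 4178.9 in Maver-1 NIKsh#2. The NTC cultures read 4952.2 with doxycycline against 3854.2 without it in Z-138 and 4123.1 against 4187.2 in Maver-1. In this probe set Z-138 NIKsh#2 was the 1 NIKsh culture that was higher with doxycycline. Probe set 1567627_at read 67.7 against 212.4 in Z-138 NIKsh#1, 119.6 against 203.9 in Z-138 NIKsh#2, 179 against 278.5 in Maver-1 NIKsh#1 and 162 against 288.1 in Maver-1 NIKsh#2. Here all 4 NIKsh cultures were lower, with a fitted change of -0.95 ± 0.19 over both lines, against -0.19 ± 0.08 for 209619_at, and neither passed (limma adjusted p = 0.312 and 0.592). The third CD74 probe set, 1567628_at, was at -0.77 ± 0.18 (limma adjusted p = 0.339). Signals of different probe sets cannot be compared in level, and which CD74 transcripts each one reads is not given in the sources used here.

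Per line, 6 of 20 probe sets passed as lower in the Z-138 NIKsh cultures, 30% of them, where 0.546% of all tested probe sets did. They were 3 of HLA-DQA1, 2 of HLA-DQB1 and 1 of HLA-DPA1, and none of HLA-DRA, HLA-DRB1, HLA-DPB1 or CD74. Those of HLA-DQA1 include 203290_at, which passed the filter through Z-138 alone. Its fit takes the 9.9 in Z-138 NIKsh#1 with doxycycline, below the filter level, as measured. At an unadjusted p under 0.05, 18 of 20 were lower, beside 6.39% of all. In the Maver-1 NIKsh cultures 0 of 20 passed (0% of all) and 8 of 20 were lower at an unadjusted p under 0.05, beside 1.67% of all. The difference between the lines, tested itself as Z-138 minus Maver-1, passed for 0 of 20, with 0.0144% of all tested probe sets passing. At an unadjusted p under 0.05, 4 of 19 were lower in that test (5 with 203290_at), beside 3.25% of all. HLA-DQA1 213831_at was at -0.84 ± 0.24 (limma adjusted p = 0.523), and for 203290_at no difference between lines could be read.

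**Figure D4:**
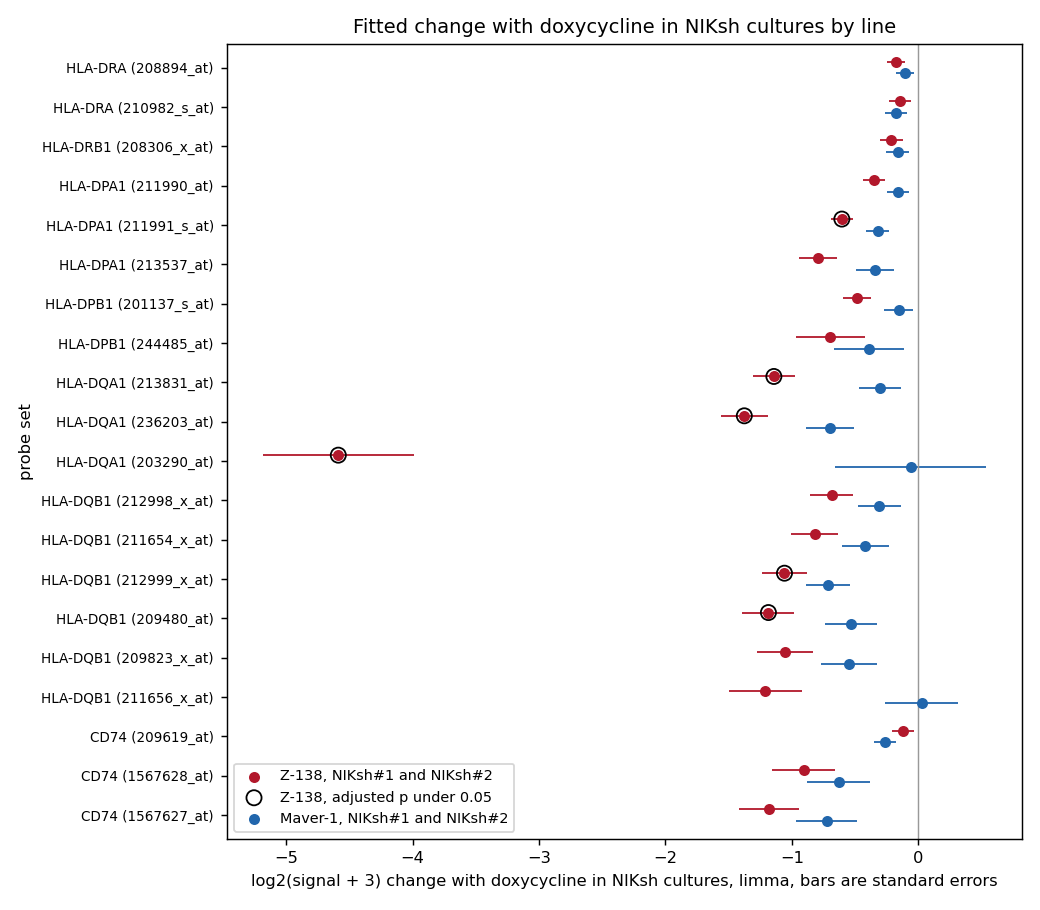
Fitted log2(signal + 3) change with doxycycline in the NIKsh cultures of Z-138 (red) and Maver-1 (blue) for the 20 tested probe sets with 1 symbol, with standard errors as bars. Rings mark the 6 Z-138 values that passed, and no Maver-1 value passed. For 203290_at the plotted values are no measured sizes, since it lay around or below the filter level in Maver-1 and in Z-138 NIKsh#1 with doxycycline.

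The Z-138 count rests on 2 residual degrees of freedom and on a spread between hairpins that is pooled over both lines. The count was 0 of 20 when the variance was not allowed to depend on signal. With the ACTB 3' to 5' ratio as a covariate it was also 0 of 20, and 0 of all tested probe sets passed. That fit leaves fewer residual degrees of freedom, and the ratio rose with doxycycline in every Z-138 culture. It therefore cannot separate the ratio from doxycycline. Its fitted values mostly lay further from 0, at -3.41 for HLA-DQA1 236203_at and -2.15 for HLA-DQB1 212999_x_at, while HLA-DQB1 209480_at turned to 0.612. These are no measured sizes, and the ratio's part in the Z-138 values was not tested. Set against the change in Z-138 NTC, 0 of 20 NIKsh changes passed (0.194% of all tested probe sets passed), the lowest adjusted p was 0.0722 and 14 of 20 were lower at an unadjusted p under 0.05, beside 5.33% of all. Leaving out Maver-1 NIKsh#1 or Maver-1 NIKsh#2 gave 15 of 20 in Z-138, and leaving out Z-138 NIKsh#2 gave 13, where the lone Z-138 NIKsh culture is assumed to vary like the others. No plasma or B cell marker passed in Z-138. There the 4 plasma cell markers had fitted NIKsh values from -0.59 to -0.06, with a median of -0.37, and the 6 B cell markers from 0.17 to 0.86, with a median of 0.42. In Maver-1 the medians were 0.10 for plasma cell and -0.10 for B cell markers, and the part of these shifts in the class II values was not tested. In bulk RNA, fewer cells that express a gene and less RNA per cell cannot be told apart.

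Between the hairpins no difference was detected. NIKsh#1 minus NIKsh#2 over both lines passed for 0 of 20 probe sets (0% of all tested probe sets), and 0 of 20 reached an unadjusted p under 0.05. The median was -0.31, against -0.01 for all tested probe sets. HLA-DQA1 213831_at was at -0.47 ± 0.35 in that difference and HLA-DQB1 209480_at at 0.42 ± 0.36, errors that leave room for sizeable differences. Of the shared probe sets, 221491_x_at was lower at an unadjusted p under 0.05, at -0.76 ± 0.26. Before induction, untreated NIKsh and NTC cultures differed in 0 of 20 (0% of all). At an unadjusted p under 0.05, 1 of 20 was lower, beside 1.24% of all tested probe sets. The values of that comparison ran from -0.28 to 0.11.

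Without doxycycline the lines differed in probe sets of the DQ and DP chains, at shares close to those of all tested probe sets, so the counts are no result about these genes. As Z-138 minus Maver-1, 7 of 20 probe sets passed as lower (35%, beside 27% of all) and 5 as higher (25%, beside 25.8% of all), or 7 and 4 of 19 without 203290_at. The 3 arrays of each line did not overlap for 13 of 20 (12 of 19), beside 60.3% of all. The ACTB 3' to 5' ratios of these arrays did not overlap either, at 2.33 to 2.92 in Z-138 and 3.66 to 6.88 in Maver-1. The ratio therefore cannot be told apart from line in this comparison. HLA-DRA (208894_at) averaged 3522 ± 383 in Z-138 and 3128 ± 236 in Maver-1, and HLA-DRB1 1824 ± 71.7 in Z-138 and 1863 ± 104 in Maver-1 (SD, n = 3 each), differences that did not pass (limma adjusted p = 0.103 and 0.739). CD74 209619_at averaged 3698 ± 253 in Z-138 and 4100 ± 144 in Maver-1 (SD, n = 3 each) and did not pass either (limma adjusted p = 0.0534).

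HLA-DPA1 was lower in Z-138 by 211990_at, at 2504 ± 62.5 against 3408 ± 171 in Maver-1 (SD, n = 3 each), a difference of -0.44 ± 0.06 (limma adjusted p = 5.51e-05). Its other probe sets were at -0.09 ± 0.09 and -0.07 ± 0.11 and did not pass. HLA-DPB1 201137_s_at was higher in Z-138, at 2312 ± 240 against 1942 ± 84.9 in Maver-1 (SD, n = 3 each), a difference of 0.25 ± 0.08 (limma adjusted p = 0.0193). That call was lost without a variance trend (adjusted p = 0.117), with the ACTB covariate (0.051, adjusted p = 0.804), without Z-138 NTC (adjusted p = 0.0704) and without Maver-1 NTC (adjusted p = 0.0689). HLA-DQA1 213831_at was lower in Z-138, at 1389 ± 183 against 2283 ± 127 in Maver-1 (SD, n = 3 each), a difference of -0.72 ± 0.09 (limma adjusted p = 3.91e-05).

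Probe sets of 1 DQ gene gave opposite answers between the lines. HLA-DQA1 203290_at averaged 956.9 ± 99.6 in Z-138 and 10.07 ± 2.65 in Maver-1 (SD, n = 3 each), where it lay around the filter level. With Maver-1 set to at least that level, 203290_at was at least 74.9-fold higher in Z-138, while the 2 other HLA-DQA1 probe sets were lower there. Since 203290_at passed the filter through Z-138 alone, its test between the lines is not used. HLA-DQB1 211656_x_at averaged 498.6 ± 44.2 in Z-138 and 76.57 ± 12 in Maver-1 (SD, n = 3 each), higher by 2.66 ± 0.14 (limma adjusted p = 3.05e-08). HLA-DQB1 209480_at averaged 179.9 ± 51.4 in Z-138 and 768.2 ± 51 in Maver-1 (SD, n = 3 each), a difference of -2.11 ± 0.17 (limma adjusted p = 7.31e-07). DQ genes are among the most variable of the genome, and a probe reads an allele only as far as it matches it. The HLA alleles of these lines are not given in the sources used here, and whether allele differences have a part in these values was not tested.

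**Figure D5:**
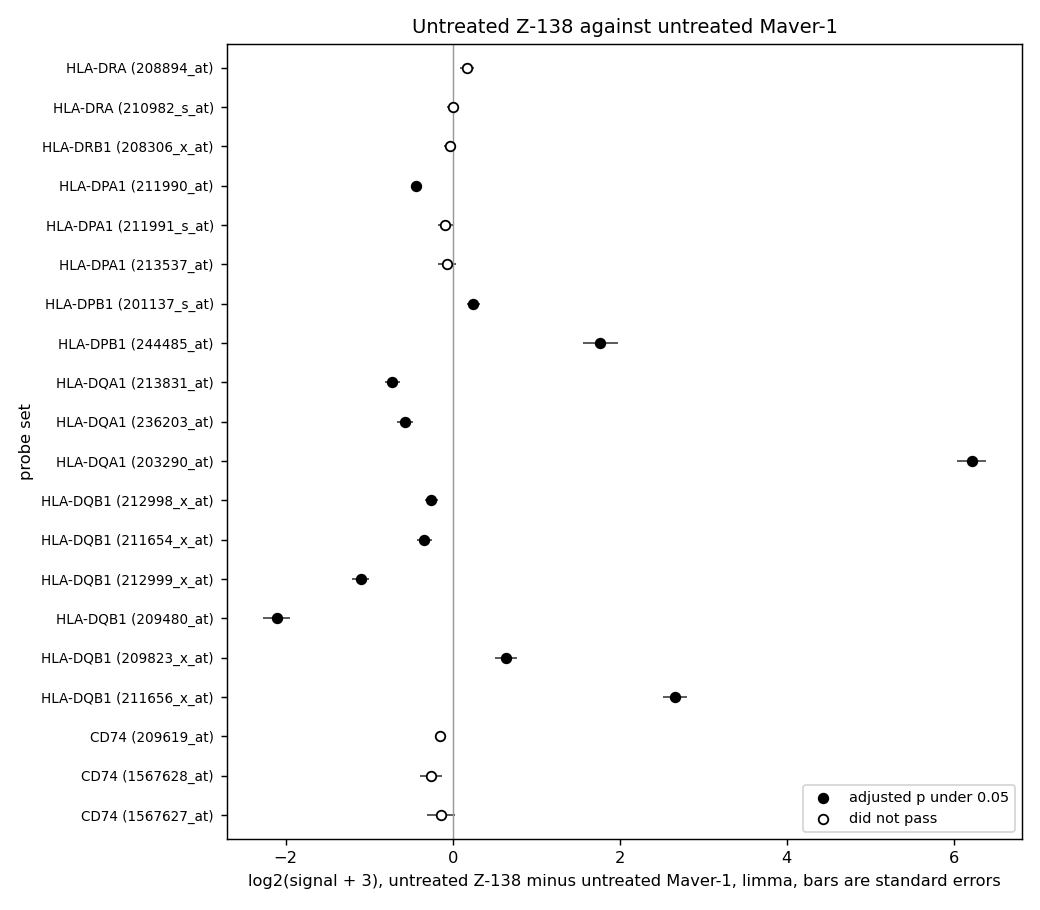
Log2(signal + 3) in untreated Z-138 minus untreated Maver-1 (3 arrays each) for the 20 tested probe sets with 1 symbol, with limma standard errors as bars and filled points where the adjusted p was under 0.05. HLA-DRA, HLA-DRB1 and CD74 lie between -0.26 and 0.17, while HLA-DQA1 and HLA-DQB1 have probe sets on both sides. The point of 203290_at is no measured size, since Maver-1 was around the filter level, and the others run from -2.11 to 2.66.

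Other genes of the pathway were read by 1 probe set each. All 4 peptide editors were lower in the NIKsh cultures at an unadjusted p under 0.05, beside 3.39% of all tested probe sets, and none passed, beside 0.00718%. HLA-DMA, a chain of the HLA-DM exchanger, was at -0.49 ± 0.11 and HLA-DMB, its partner, at -0.47 ± 0.11, while HLA-DOA and HLA-DOB, the chains of the HLA-DM inhibitor HLA-DO, were at -0.49 ± 0.11 and -0.61 ± 0.23 (limma adjusted p of 0.339, 0.339, 0.339 and 0.549). HLA-DOB read 57.3 against 130.6 without doxycycline in Z-138 NIKsh#1 and 56.1 against 122.9 in NIKsh#2, and 128.7 against 130.6 in Z-138 NTC. In Maver-1 it read at most 73.7 on any array.

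Of 12 regulators of class II transcription, 0 passed in the NIKsh cultures and 3 were lower at an unadjusted p under 0.05, beside 3.39% of all tested probe sets. CIITA, the transactivator, read 190.6 against 296.3 without doxycycline in Z-138 NIKsh#1 and 290.6 against 302.4 in NIKsh#2 of that line. For Maver-1 it read 326.3 against 413.7 (NIKsh#1) and 288.6 against 418.4 (NIKsh#2). Both NTC cultures were higher with doxycycline, at 511.3 against 339.7 in Z-138 and 441.4 against 348.5 in Maver-1, so the groups did not overlap (exact permutation test, two-sided, p = 0.0667). RFXANK, a subunit of the X box factor RFX, read 233.1 against 374.9 in Z-138 NIKsh#1 and 222.9 against 418.4 in NIKsh#2, 232.6 against 285.3 in Maver-1 NIKsh#1 and 201.6 against 246.6 in NIKsh#2. Its NTC signals were 303.5 with doxycycline against 316.1 without it in Z-138 and 217.4 against 181.5 in Maver-1. Before induction the RFXANK difference, NIKsh minus NTC cultures, was 0.43 ± 0.13, which did not pass (limma adjusted p = 0.991). The RFX subunit RFXAP was at 0.02 ± 0.09 over the 4 NIKsh cultures. Another regulator, NFYB, went the other way. Its NIKsh changes all lay above both NTC changes, with a mean difference of 0.34 (exact permutation test, two-sided, p = 0.0667). Against the NTC cultures 5 of the 12 regulators had a negative value, beside 46.6% of all tested probe sets, and the list median was 0.07.

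In the other lists none of the genes passed in the NIKsh cultures. At an unadjusted p under 0.05, where 3.39% of all tested probe sets were lower, 2 of 8 measured antigen processing genes were lower, among them CTSH, a lysosomal protease, at -0.86 ± 0.13 (limma adjusted p = 0.232). Of 9 MHC class I genes 3 were lower at that level with a list median of -0.16, and B2M, the light chain of class I, was at 0.04 ± 0.05. Of 6 genes of class II turnover and CD74 partners 0 were lower or higher at that level, with a median of 0.04. Of 2 measured class II chain genes outside the 7, HLA-DRB6 was at -0.39 ± 0.12 and HLA-DPB2 at -0.06 ± 0.29 (limma adjusted p of 0.446 and 0.978).

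Across the 12 arrays, with each line centred on its mean, the brightest probe sets of the 7 genes correlated at 0.49 to 0.96, with a median Pearson r of 0.81 over 21 pairs. The highest was HLA-DPA1 with HLA-DQB1 and the lowest HLA-DRA with CD74. These points share cultures and scaling, so they describe the arrays and are given no p. The genes most like the mean of the 7, among 11542 compared over 12 arrays, were TOMM5 at r = 0.978, LMCD1 at 0.971, CHST11 at 0.964, P2RX5 at 0.962, IFIH1 at 0.961 and TTN at 0.96. IFIH1, which encodes the RNA sensor MDA5, changed by -1.96 in Z-138 NIKsh#1 and -1.29 in NIKsh#2, and by 0.33 in Z-138 NTC, and it did not pass in the NIKsh cultures (-1.02 ± 0.25, limma adjusted p = 0.339).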

How the data were processed

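Total RNA was extracted, amplified and labelled with biotin, per the labels' protocols, and hybridised to Affymetrix arrays. The deposited values are linear signal intensity per probe set, made with MAS5 per the submitters' processing notes. A mean trimmed by 2 percent at each end came to 150.02 on every array, which shows a common scaling by the authors, and none was added. Precision is limited by how few arrays there are.

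From the deposited intensity, log2(signal + 3) was computed. This scale understates changes of dim probe sets. Of 54675 probe sets, 41091 had 1 symbol in the platform annotation, 1801 several, 11721 were not named and 62 were controls. The 27858 non-control probe sets with a mean signal of at least 12.55, the median of array medians, were tested with limma 3.58.1 in R 4.3.3 (moderated two-sided tests, intensity trend, Benjamini-Hochberg at 0.05), tested on simulated data first. Culture was a fixed block, since per the labels each culture's cells were put in medium with and without doxycycline. Models had 4, 2 (per line) and 3 (per hairpin) residual degrees of freedom, and the 6 untreated arrays were compared between lines and between constructs. The deviations of the 2 arrays of a NIKsh culture from their group means correlated across probe sets (-0.125 for Z-138, 0.163 for Maver-1). Single values were compared by exact permutation over cultures. Python 3.11.15 with pandas 2.3.3 served for the promoter search, and matplotlib 3.10.9 for figures.

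Named genes are the 7, MAP3K14, class II regulators and peptide editors, up to 4 genes of each other list by p, and the 6 most correlated genes. A gene is stood for by its brightest probe set with 1 symbol, and the rest are given beside it. The members and lists were chosen with earlier results of these data known. Alternatives covered the pseudocount, filter, scaling, probe set choice, variance model, array weights, ACTB ratio, block and each culture left out.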

Additional observations from a re-analysis of the deposited data

Results flagged for a closer look

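Among the 20 tested probe sets with 1 symbol, 3 had 1 NIKsh culture far from the other 3 in its change with doxycycline. The gap to the nearest culture, as a share of the range, exceeded Dixon's 95% critical value for 4 values, and chance alone gives about 1 such group in 20. HLA-DQB1 212999_x_at changed by -1.37 in Z-138 NIKsh#1, against -0.75 in NIKsh#2 of the same line and -0.70 and -0.73 in the Maver-1 cultures with NIKsh#1 and NIKsh#2. HLA-DQB1 209823_x_at changed by -1.48 in the same culture, against -0.63, -0.62 and -0.48 in the other 3. CD74 209619_at changed by 0.09 in Z-138 NIKsh#2, against -0.33 in Z-138 NIKsh#1 and -0.26 in each Maver-1 NIKsh culture.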

How the results depend on the processing

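No probe set of the 7 genes passed in the NIKsh cultures over both lines, in the NTC cultures, in their difference, between hairpins or between untreated constructs under any of the alternatives run, the replicate block included. The count in the Z-138 NIKsh cultures, 6 of 20, was 1 of 7 with 1 probe set per gene, 2 of 7 with the mean of a gene's probe sets, 0 without a variance trend, 0 with the ACTB ratio as a covariate, 10 with no replicate block and 11 with the replicate block as a random effect. Set against Z-138 NTC, an alternative added after seeing the data, it was 0. Leaving out each culture gave 6 to 15 in Z-138, 0 to 1 in Maver-1 (1 without Z-138 NIKsh#1), 0 to 2 for the difference between lines (2 without Z-138 NIKsh#2, 1 without any other NIKsh culture) and 10 to 14 for the untreated lines. The untreated count, 12 of 20, was 5 of 7 and 3 of 7 at gene level. Of the brightest probe sets, 3 of 7 (HLA-DRB1, HLA-DQA1 and HLA-DQB1) had all 4 NIKsh changes below both NTC changes, 5 of 7 with quantile or 75th percentile scaling, and 3 to 5 with a culture left out (5 when the NTC culture of Z-138 or that of Maver-1 was left out). Among values that kept their direction, the ACTB covariate moved the Z-138 NIKsh values of the brightest probe sets to -2.802 for HLA-DQB1, -2.233 for HLA-DPB1, -1.043 for HLA-DRB1, -0.928 for HLA-DRA and -0.921 for CD74. That fit left too few residual degrees of freedom for these to be measured sizes. HLA-DPA1 passed in Z-138 with averaged probe sets, and HLA-DQB1 with the random block. Direction turned in a few values. With the ACTB covariate HLA-DQB1 209480_at was at 0.612 in Z-138 NIKsh cultures and HLA-DRA at -0.091 between untreated lines. Also between untreated lines, 75th percentile scaling put HLA-DRB1 at 0.011 and averaging probe sets put HLA-DQA1 at 1.64. That average takes in 203290_at at 6.212, which is no measured size. The other HLA-DQA1 probe sets were at -0.722 and -0.571. With a culture left out, CD74 209619_at ran from -0.327 to 0.087 in Z-138, HLA-DPB1 from -0.326 to 0.015 in Maver-1, HLA-DRA from -0.275 to 0.01 between NIKsh and NTC, and HLA-DRB1 from -0.077 to 0.003 between lines. The causes were not tested, apart from fewer units at gene level.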
